A study of Saccharomyces cerevisiae with 12 samples.

Results

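The measurement described here is how far each mRNA of budding yeast, Saccharomyces cerevisiae, moved between cytoplasm and total lysate when the RNA export receptors Mex67 and Xpo1 were inactivated. It is the log2 ratio of the cytoplasmic fraction to the total lysate in mutant cells (mex67-5 xpo1-1) minus the same log2 ratio in the wild type, called the change of ratio below. A negative value is a loss, meaning that less of an mRNA was found in the cytoplasm relative to the total in the mutant than in the wild type, and a positive value is a gain. The members are mRNAs that could be read by strand. Of 6692 annotated mRNAs, 2635 had a feature on the opposite strand that met the rule given next, and 2442 of these had a mean count above 40 over the 12 libraries and were tested.

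Strand decides what each count means. The reads lay on the strand opposite to the RNA, so an mRNA was read from the opposite-strand feature that covers at least 0.5 of it, lies to at least 0.8 inside it and touches no other mRNA of that strand. Its antisense RNA was read from the feature that carries the gene's own name. At the median mRNA the opposite-strand feature held 8.41 times the counts of the own feature, and it held more counts at 2143 of the 2442. With coverage of at least 0.5 as the only condition, 5749 mRNAs could be tested, of which 436 lost (7.58%) and 230 gained (4%). The sources name a library kit that does not mark strand, and how the strands came to be separated was not tested.

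With the mutant the study asked whether double-stranded RNAs also leave the nucleus by way of these receptors. It reported that RNAs of every type stayed in the nucleus, whatever their likelihood of forming a double strand. It also reported that mRNAs of the top group in that comparison code for membrane proteins. It had 4 groups of 3 libraries each, wild-type total, wild-type cytoplasm, mex67-5 xpo1-1 total and mex67-5 xpo1-1 cytoplasm, described as biologically independent samples. Per the study's methods the total sample and the cytoplasm came from the same culture, but whether equal replicate numbers mark one culture is not given. All cultures were held at 37 °C for 1 h, a temperature at which both mutant proteins stop working. The total sample was taken from the lysed spheroplasts (cells without their wall) and the cytoplasm was the supernatant of a Ficoll spin, so nuclei and other material that sediments are missing from the fraction. The labels give BY4741 for both strains, with his3, leu2, met15 and ura3 inactive in the wild type. In the double mutant the chromosomal MEX67 and XPO1 genes are replaced by HIS3 and TRP1, and the temperature-sensitive alleles mex67-5 and xpo1-1 sit on plasmids, so the strains differ in more than these 2 alleles.

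Mex67, with its partner Mtr2, is the main export receptor of mRNA: it is loaded onto finished mRNA by adaptor proteins and carries it through the nuclear pore. Xpo1, also called Crm1, is the exportin of proteins with a leucine-rich export signal, and it also carries RNA cargo by way of adaptors such as the cap-binding complex and ribosomal subunit factors. Once in the cytoplasm, mRNAs of membrane and secreted proteins are bound through their nascent chain by the signal recognition particle and translated at the endoplasmic reticulum (ER), while mRNAs of soluble proteins are translated on free ribosomes. Every ratio here is relative to the other RNAs of the same library, so a retention shared by all RNAs does not show in it, and slower export cannot be told apart from faster decay in the cytoplasm or new synthesis that has not yet been exported.

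Library totals ran from 24532091 to 37361004 counts, and the lowest Spearman correlation between replicates of a group was 0.973, in the wild-type cytoplasm, where replicate 2 stood apart (−15.6 on the first principal component against −43.1 and −31.9). Among the genes that mark the strains, HIS3 mRNA had 11 to 329 counts in wild-type libraries and 10909 to 20357 in mutant libraries, and MEX67 mRNA had 1782 to 2581 and 8532 to 11609. MET17, also called MET15, and LEU2 did not go with the wild-type genotype in full: they had 1040 to 3488 and 403 to 909 counts in wild-type libraries, against 4670 to 8663 and 3970 to 9054 in mutant libraries, and where these reads came from was not tested. The feature opposite to URA3 also spans GEA2, so URA3 could not be checked. Mitochondrially encoded RNA took 2.32% to 2.70% of the counts in the wild-type cytoplasm against 4.34% to 6.18% in the wild-type total, and 3.31% to 6.41% in the mutant cytoplasm against 9.47% to 14.3% in the mutant total, so it was depleted from the cytoplasm in both strains. Its share also differed between the strains, and its part in the results was not tested.

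Losses outnumbered gains under the main scaling. Of 2442 mRNAs, 226 lost (9.25%) and 90 gained (3.69%) by edgeR's quasi-likelihood test of the interaction at a Benjamini-Hochberg adjusted p under 0.05 over all 13145 features tested, and 2126 were not called. Over all 13145 features, 746 were lower and 601 higher at the same threshold. The median change of ratio was −0.20 (quartiles −0.45 and 0.08) beside −0.10 over all features, and 1676 mRNAs (68.6%) lay below 0. The median standard error of a single mRNA was 0.21. The split of the calls depended on the scaling. With library totals in place of the trimmed mean of M values (TMM), the numbers were 91 losses and 222 gains and the median over all features moved from −0.10 to 0.21. With TMM factors from the mRNAs alone they were 137 and 163 (median over all features 0.09), and scaled to mitochondrially encoded transcripts they were 1 and 10 (0.32). All 91 and all 137 losses were among the 226, and none of the 226 became a gain under these scalings. A scaling adds nearly the same amount to every gene, so it moves the sign of values near 0 but hardly the order of genes. Scaled to mitochondrial transcripts, calls were also lost at gains whose values rose, such as CTS1, from 1.55 to 1.99 (adjusted p = 0.0518). Why calls were lost there was not tested. The replicate number as a block within each strain gave 283 losses and 108 gains.

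The losses had mostly been cytoplasm-rich in the wild type. Of the 226, 144 were higher in the cytoplasm than in the total in wild type at an adjusted p under 0.05, 6 were lower and 76 did not pass. In the mutant 13 were higher, 124 lower and 89 did not pass. Their median change of ratio was −0.90 and the range was −2.51 to −0.48. Of the 90 gains, 13 were cytoplasm-high and 20 cytoplasm-low in wild type, while 79 were cytoplasm-high in the mutant, with a median of 0.92 and a range of 0.53 to 2.25. The ratios of both strains enter the difference and are given side by side only. Leaving out single libraries moved the number of losses over 1.5 times for 9 of the 12: it was 373 without wild-type cytoplasm replicate 2 and lay between 95 and 148 without wild-type total 2 or 3, wild-type cytoplasm 3, mutant total 1, 2 or 3, or mutant cytoplasm 1 or 2. The number of gains was 50 to 105, with over 1.5 times fewer without wild-type total 3 (52), wild-type cytoplasm 3 (50) or mutant total 1 (55).

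**Figure D1:**
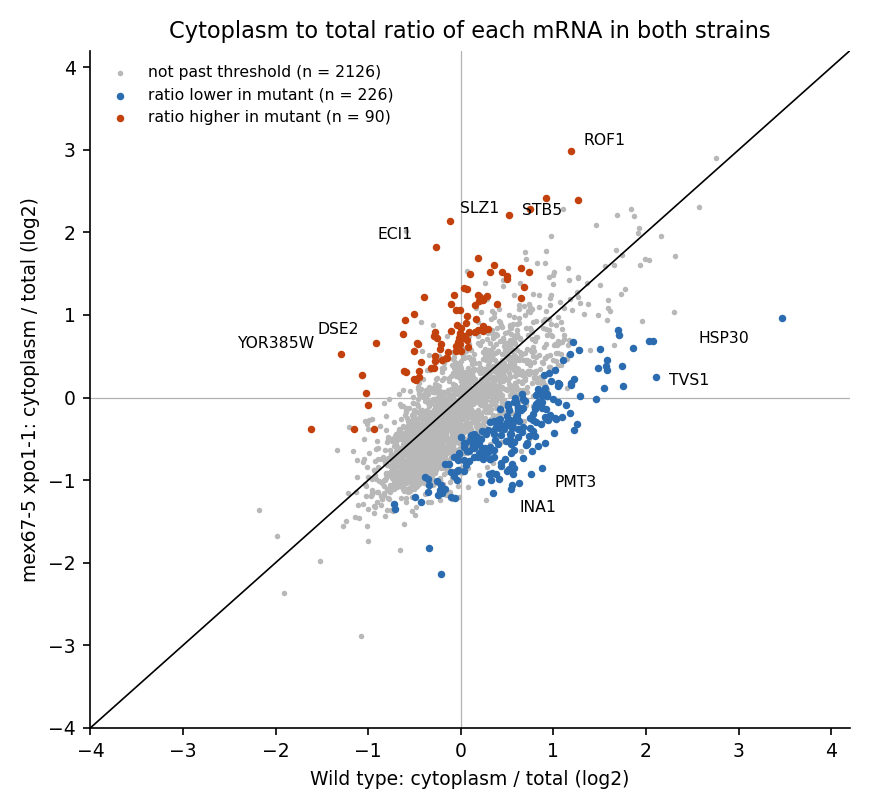
Each point is one of the 2442 mRNAs, with its log2 ratio of cytoplasm to total in wild type on the x axis and in mex67-5 xpo1-1 on the y axis; the line marks equal ratios, and colours mark the 226 losses, the 90 gains and the mRNAs not called. The losses lie below the line, most of them on the side where the wild-type ratio is above 0, and the gains lie above it.

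Of the 12 largest losses, 7 encode proteins with 5 or more hydrophobic segments, counted as non-overlapping 19-residue windows with a mean hydropathy of at least 1.6. The other 5 have fewer, with 4 in INA1, 1 each in ERG5, IRC13 and YNL190W, and 0 in TCB1. Of all 2421 tested mRNAs with a coding sequence, 162 have 5 or more. The next lines give the 19 codons that spell the most hydrophobic window, from 4 losses that were chosen for having 5 or more segments (HSP30, TVS1, PMT3 and ERG4) and from 3 mRNAs with a change near 0 (PLP2, MKK2 and SCL1), so they illustrate the measure and are no test of it. The sequences are from RefSeq's R64 assembly, written 5′ to 3′ on the coding strand, and capitals mark a T at the second codon position, which gives phenylalanine, leucine, isoleucine, methionine or valine.
HSP30: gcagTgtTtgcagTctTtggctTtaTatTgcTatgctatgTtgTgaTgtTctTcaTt
TVS1: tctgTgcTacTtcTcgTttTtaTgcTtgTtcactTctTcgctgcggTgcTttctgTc
PMT3: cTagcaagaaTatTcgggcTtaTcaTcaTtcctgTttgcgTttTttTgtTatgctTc
ERG4: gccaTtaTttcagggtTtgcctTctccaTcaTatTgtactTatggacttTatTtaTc
PLP2: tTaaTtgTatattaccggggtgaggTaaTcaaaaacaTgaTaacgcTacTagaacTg
MKK2: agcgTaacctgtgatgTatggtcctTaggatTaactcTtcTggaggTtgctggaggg
SCL1: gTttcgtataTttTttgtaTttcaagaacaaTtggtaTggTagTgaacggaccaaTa
They lie at chrIII:156943-156999 (minus strand), chrIII:226073-226129 (plus), chrXV:916867-916923 (plus) and chrVII:473389-473445 (plus) for the losses, and at chrXV:846509-846565 (minus), chrXVI:287802-287858 (minus) and chrVII:474987-475043 (minus) for the others, all within coding exons. The losses held 14, 14, 13 and 11 such T in 19 codons and the others 10, 7 and 9. On the Kyte-Doolittle scale, on which higher means more hydrophobic, the encoded segments had a mean hydropathy of 2.83, 2.58, 2.65 and 2.16 against 0.86, 1.05 and 1.25.

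HSP30, which encodes a plasma membrane protein induced by heat, had the lowest change of ratio at −2.51 ± 0.70 (SE, adjusted p = 0.0382). Its normalised read counts in counts per 1000000 (CPM) were 171, 400 and 190 in the wild-type total and 743, 4986 and 2702 in the wild-type cytoplasm. In the mutant they were 1676, 1356 and 1016 in the total and 2505, 2451 and 2909 in the cytoplasm. The cytoplasm stood above the total in both strains without overlap, 11.1-fold in wild type and 1.94-fold in the mutant, the mutant total stood above the wild-type total, and the cytoplasm of both strains overlapped. The wild-type cytoplasm spread over a wide range. The call was lost without any 1 of 9 libraries (all but wild-type total 2, wild-type cytoplasm 1 and mutant total 3), with adjusted p between 0.0553 and 0.0952, and with library totals (adjusted p = 0.0512) or TMM factors from mRNAs (0.0618).

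TVS1, which encodes a protein with 9 predicted hydrophobic segments, changed by −1.86 ± 0.26 (adjusted p = 0.00246). It had 80.1, 111 and 106 CPM in the wild-type total and 344, 424 and 512 in the wild-type cytoplasm, and 96.2, 124 and 84.1 and then 109, 122 and 131 in the mutant. The totals of both strains overlapped, the wild-type cytoplasm was 4.31-fold above it, and the mutant fractions overlapped. YNL190W, a small cell wall protein of the hydrophilin kind, showed the same pattern with the tightest replicates: 433, 470 and 486 CPM in the wild-type total, 1605, 1435 and 1619 in the wild-type cytoplasm, 548, 424 and 465 in the mutant total and 558, 551 and 479 in the mutant cytoplasm. Its change of ratio was −1.6 ± 0.20 (adjusted p = 0.00151), and 18.4% of its 50-base windows also occur elsewhere in the genome, so its reads cannot all be assigned to one locus.

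In 2 enzymes of the ER, PMT3 and ALG7, the cytoplasm stood below the total in the mutant. PMT3, a mannosyltransferase that O-glycosylates proteins in the ER, had 71.1, 65.9 and 79.0 CPM in the wild-type total, 133, 104 and 159 in the wild-type cytoplasm, 27.8, 37.8 and 34.7 in the mutant total and 17.1, 16.2 and 22.2 in the mutant cytoplasm. The fractions did not overlap in either strain and their order was opposite, with a change of −1.73 ± 0.25 (adjusted p = 0.00254). ALG7, which starts the lipid-linked sugar of N-glycosylation, went from 38.9, 30.9 and 32.3 CPM in the wild-type total to 56.5, 38.7 and 55.1 in the cytoplasm and from 22.6, 26.7 and 24.2 to 10.66, 10.01 and 14.70 in the mutant. Its wild-type fractions overlapped by 1 library, and its change of ratio was −1.61 ± 0.25 (adjusted p = 0.00271).

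The late sterol enzymes ERG5 and ERG4, which desaturate and reduce the ergosterol side chain, changed by −1.68 ± 0.35 (adjusted p = 0.0107) and −1.67 ± 0.32 (adjusted p = 0.00758). ERG4 had 281, 223 and 304 CPM in the wild-type total, 466, 281 and 502 in the wild-type cytoplasm, 98.4, 119 and 98.8 in the mutant total and 45.7, 41.3 and 66.8 in the mutant cytoplasm. ERG5 had 240, 179 and 205 CPM and 503, 205 and 346 in wild type, and 248, 212 and 195 and then 116, 98.7 and 130 in the mutant. For both genes the mutant fractions were apart, and wild-type cytoplasm replicate 2 was the library that fell within the range of the wild-type total.

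Among plasma membrane transporters, HXT1, the low-affinity glucose transporter, and AQR1, a drug and amino acid exporter, were among the 12 largest losses. HXT1 had 437, 249 and 445 CPM in the wild-type total, 898, 682 and 1123 in the wild-type cytoplasm, 739, 563 and 377 in the mutant total and 441, 458 and 444 in the mutant cytoplasm. Its change of ratio was −1.58 ± 0.37 (adjusted p = 0.0182), which did not pass without wild-type cytoplasm 3 (adjusted p = 0.0555) or mutant cytoplasm 1 (adjusted p = 0.0519). AQR1 had 98.8, 106 and 110 CPM and then 340, 158 and 236 in wild type, and 144, 172 and 93.4 and then 94.4, 122 and 94.8 in the mutant, a change of −1.61 ± 0.36 (adjusted p = 0.0140). In both genes the wild-type fractions were apart and the mutant fractions overlapped.

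Of the other large losses, TCB1, a tricalbin that tethers the ER to the plasma membrane, changed by −1.51 ± 0.26 (adjusted p = 0.00432), and its cytoplasm lay above the total in every wild-type library and below it in every mutant library. INA1, whose protein has 4 predicted hydrophobic segments, changed by −1.66 ± 0.43 (adjusted p = 0.0263). Its call was lost without wild-type total 2 or 3, mutant total 1 or 3, or mutant cytoplasm 1 or 2 (adjusted p 0.0503 to 0.0773). The value at IRC13, −1.92 ± 0.39 (adjusted p = 0.00925), cannot be assigned to its mRNA. Its feature spans SNR17A, a gene of the U3 small nucleolar RNA on the same strand, and held a mean of 267168 counts against 54.5 on the own feature. The counts there were 11178, 6911 and 7838 CPM in the wild-type total and 9339, 4837 and 8120 in the wild-type cytoplasm. In the mutant they were 17105, 15943 and 12138 in the total and 2553, 3822 and 3904 in the cytoplasm. Only the mutant fractions were apart, with a log2 ratio of −2.14 against −0.22 in wild type. Whether the cytoplasmic fractions of both strains held nuclear RNA to the same extent was not tested here.

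**Figure D2:**
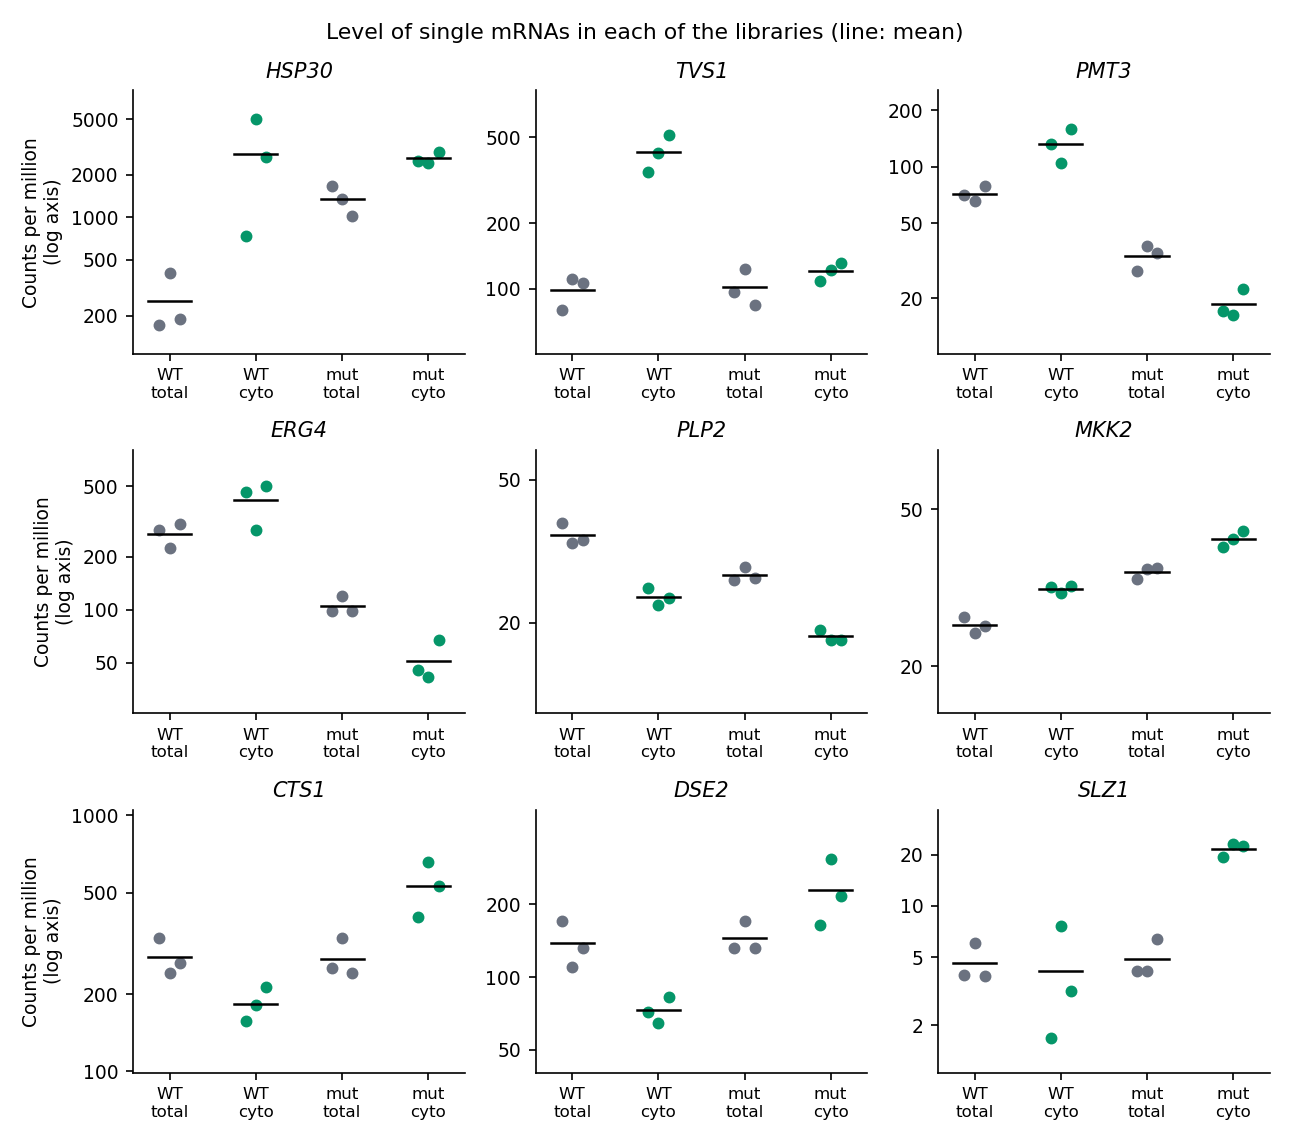
Normalised read counts (CPM, log axis) in each of the 12 libraries for mRNAs with a large loss, a change near 0 and a large gain; each point is a library and each line the mean of 3. TVS1 rises from 80.1 to 111 CPM in the wild-type total to 344 to 512 in the wild-type cytoplasm while its mutant fractions overlap, PLP2 has the same step in both strains, and SLZ1 is at 19.5 to 22.9 in the mutant cytoplasm and at 7.66 or below in every other library.

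At the other end stood mRNAs with little change, ranked by how closely the 95% interval of the change of ratio lay around 0. The interval lay within ±0.5 for 280 mRNAs (11.5%) and within ±1 for 1656 (68%). PLP2, a phosducin-like protein that helps the chaperonin fold actin and tubulin, came first, with a change of 0.00 (interval −0.31 to 0.31). It had 37.8, 33.2 and 33.9 CPM in the wild-type total and 25.05, 22.38 and 23.48 in the wild-type cytoplasm, then 26.4, 28.6 and 26.6 and 19.1, 18.0 and 17.9 in the mutant. Both strains had less of it in the cytoplasm than in the total, by 1.48-fold each, and the fractions were apart in both. SCL1, an alpha subunit of the proteasome core, also stood 1.48-fold lower in the cytoplasm of both strains (change 0.00, interval −0.32 to 0.32).

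MKK2, a kinase of the cell wall integrity cascade, was higher in the cytoplasm of both. Its CPM were 26.7, 24.3 and 25.3 and then 31.7, 30.6 and 31.9 in wild type, and 33.3, 35.2 and 35.6 and then 40.2, 42.0 and 44.1 in the mutant, a change of −0.02 (interval −0.31 to 0.27). RIO1, a kinase of small ribosomal subunit maturation, YCT1, a cysteine transporter, NRG1, a repressor of glucose-repressed genes, SHE9, a mitochondrial inner membrane protein, and MED2, a Mediator subunit, followed, with no bound farther from 0 than 0.34. NRG1 differed between the strains in level but not detectably in its ratio: it had 21.6 to 24.6 CPM in the wild-type total and 71.9 to 75.3 in the mutant total, and 16.3 to 20.1 and 53.5 to 59.3 in the cytoplasm. RIO1 is the least certain reading, with a mean of 987 counts on the opposite strand and 999 on its own feature. VPS27 and RQC1 lay just outside the 8, at 0.342 and 0.344. Which mRNAs lie nearest 0 depends on the scaling: with library totals the largest bound of PLP2 was 0.65 instead of 0.31.

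The largest gains were in genes of varied functions, some of them shared with the losses, such as the cell wall. STB5, a zinc-cluster transcription factor of the oxidative stress and drug responses, had the lowest adjusted p of the named genes (0.000725), with a change of 1.69 ± 0.17. Its CPM were 18.6, 16.3 and 15.6 in the wild-type total, 25.6, 22.3 and 24.6 in the wild-type cytoplasm, 18.9, 21.9 and 23.4 in the mutant total and 95.7, 108 and 93.9 in the mutant cytoplasm. The mutant cytoplasm stood 4.63-fold above its total, with the other groups close together. ROF1, which encodes a putative transcription factor, rose in the mutant total and more so in its cytoplasm: 5.69, 2.77 and 2.94 and then 8.62, 9.14 and 8.45 CPM in wild type, and 18.4, 19.5 and 28.0 and then 186, 216 and 119 in the mutant (1.79 ± 0.38, adjusted p = 0.0115). ROF1 and STB5 are neighbours on the same strand of chromosome VIII with 699 bases between them and no annotated mRNA in that interval.

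SLZ1, a gene of sporulating cells, gained most, at 2.25 ± 0.54 (adjusted p = 0.0189). It had 3.95, 6.10 and 3.90 CPM in the wild-type total, 1.69, 7.66 and 3.17 in the wild-type cytoplasm, 4.18, 4.15 and 6.36 in the mutant total and 19.5, 22.9 and 22.4 in the mutant cytoplasm, and it did not pass without wild-type cytoplasm 3 (2.08, adjusted p = 0.0571). ECI1, a peroxisomal enzyme of fatty acid oxidation, had 6.94, 6.50 and 5.05 and then 3.16, 6.27 and 5.72 CPM in wild type, and 7.64, 9.25 and 7.98 and then 25.5, 38.3 and 24.2 in the mutant (2.10 ± 0.33, adjusted p = 0.00318). In both genes the wild-type fractions overlapped and the mutant cytoplasm stood above every other library. ECI1 lies 1211 bases from CTS1, another gain, on the same strand of chromosome XII. Between them lie YLR285C-A on that strand and NNT1 on the other.

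A set of gains encodes enzymes and proteins that act on the wall when a daughter cell separates from its mother. CTS1, the chitinase of the septum, had 331, 242 and 265 CPM in the wild-type total, 158, 181 and 214 in the wild-type cytoplasm, 253, 332 and 242 in the mutant total and 402, 659 and 530 in the mutant cytoplasm, a change of 1.55 ± 0.28 (adjusted p = 0.00600). DSE2, a daughter-specific wall protein, had 171, 110 and 132 and then 72.1, 64.4 and 82.8 CPM in wild type, and 132, 171 and 133 and then 164, 309 and 217 in the mutant (1.58 ± 0.31, adjusted p = 0.00827). SCW11, a glucanase of the wall, changed by 1.62 ± 0.30 (adjusted p = 0.00666), and its feature also holds a tRNA gene of the same strand. For CTS1 and DSE2 the wild-type cytoplasm lay below the total without overlap, and the mutant cytoplasm was higher than the total, without overlap for CTS1 alone. YOR385W had the same turn of order: 64.4, 58.2 and 104 CPM in the wild-type total, 28.5, 29.1 and 34.7 in the wild-type cytoplasm, 67.5, 56.8 and 73.3 in the mutant total and 95.6, 95.5 and 94.3 in the mutant cytoplasm (1.83 ± 0.27, adjusted p = 0.00261).

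The other named gains were PRM1, a membrane protein of mating cell fusion (1.51 ± 0.20, adjusted p = 0.00213), DAK2, a dihydroxyacetone kinase (1.5 ± 0.27, adjusted p = 0.00518), VEL1, a gene induced by zinc shortage (1.54 ± 0.33, adjusted p = 0.0125), and ADH7, an alcohol dehydrogenase (1.52 ± 0.40, adjusted p = 0.0296). DAK2 and VEL1 were also higher in the mutant total than in the wild-type total. VEL1 did not pass without wild-type total 3 (adjusted p = 0.0519), and ADH7 did not pass without wild-type total 3, wild-type cytoplasm 3 or mutant total 2 (adjusted p 0.0595 to 0.0963) or with the replicate number as a block (adjusted p = 0.0508). ADH7 had a mean of 42.2 counts on the opposite strand against 142 on its own feature.

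**Figure D3:**
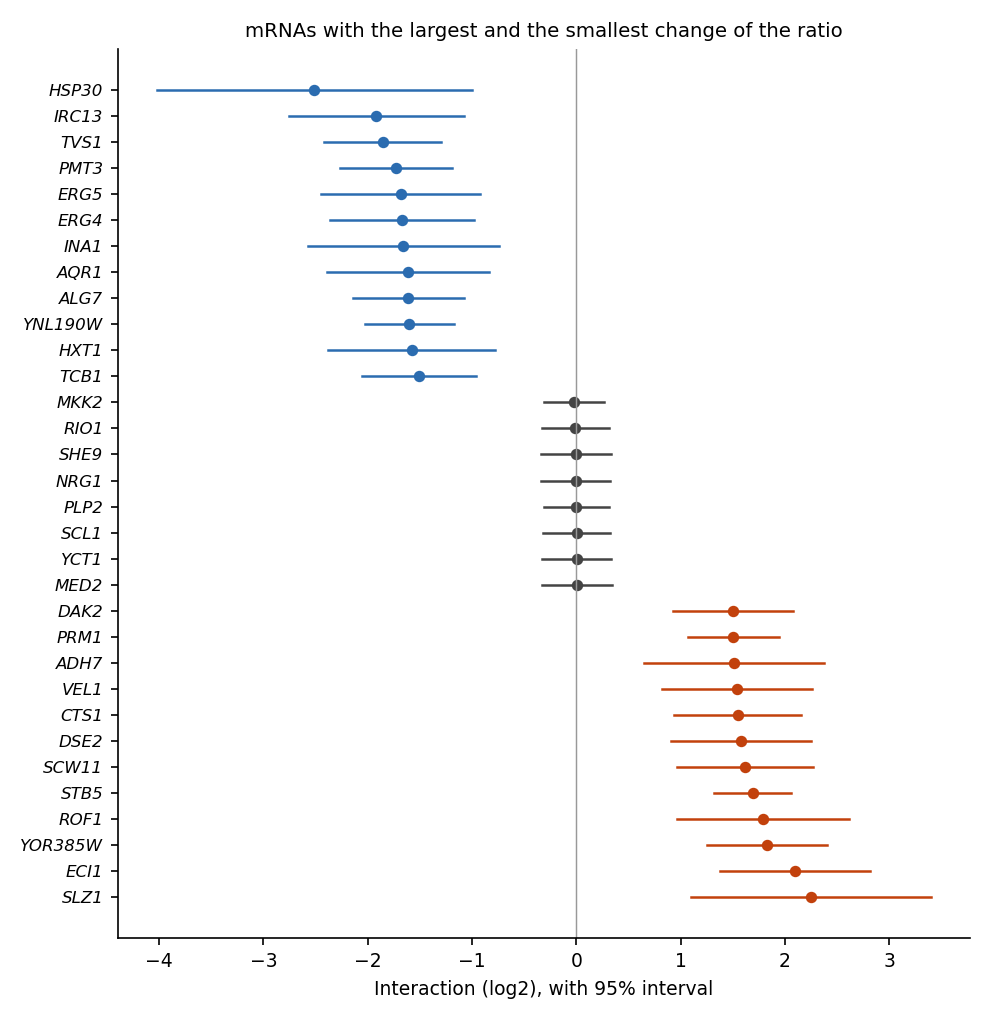
The change of ratio on the log2 scale for the 12 largest losses, the 8 mRNAs with the least change and the 12 largest gains, as points with 95% intervals. HSP30 and SLZ1 have the widest intervals, and the intervals of the 8 with the least change stay within ±0.34.

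Groups of genes with a shared role were counted against the background of 9.25% losses and 3.69% gains, or 3.73% and 9.09% with library totals. The clearest was the list of ER translocation, glycosylation and folding: 17 of 33 tested members lost, none gained and the median was −0.70, with median log2 ratios of 0.36 in wild type and −0.44 in the mutant. Of the gene groups described, this one, sterol synthesis and the plasma membrane transporters kept a median below 0 under all 4 scalings (here −0.70, −0.52, −0.40 and −0.24), while the other medians below 0 turned positive when scaled to mitochondrial transcripts or earlier. The groups that stayed below 0 had the lowest medians under the main scaling, so a shift common to all genes turns their sign last. Beside PMT3 and ALG7, the losses of the ER list included SEC63, the translocon subunit that recruits the ER chaperone, at −1.39 ± 0.21 (adjusted p = 0.00271), and PMT4, another mannosyltransferase, at −1.22 ± 0.27 (adjusted p = 0.0131). SEC63 had 174 to 202 CPM in the wild-type total, 200 to 306 in the wild-type cytoplasm, 112 to 116 in the mutant total and 60.4 to 63.6 in the mutant cytoplasm. The number of losses in the list was 11 to 20 when 1 library was left out, 11 without wild-type cytoplasm 3, mutant cytoplasm 1 or mutant cytoplasm 2, and it was 10 with library totals and 0 when scaled to mitochondrial transcripts.

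Sterol synthesis had 5 losses of 12 and no gain (median −0.70). ERG25, the C-4 methyl sterol oxidase, changed by −1.42 ± 0.36 (adjusted p = 0.0258) and HMG2, an HMG-CoA reductase, by −0.86 ± 0.22 (adjusted p = 0.0242). In HMG2 the mutant fractions overlapped, at a log2 ratio of 0.02. Leaving out 1 library gave 2 to 6 losses in this list, with 2 or 3 without wild-type total 2 or 3, wild-type cytoplasm 3, any mutant total, or mutant cytoplasm 1 or 2, and library totals gave 3 losses and 1 gain, without HMG2 (adjusted p = 0.102). Plasma membrane transporters and pumps had 9 losses of 34 and no gain (median −0.57). GNP1, a glutamine permease, had 221, 212 and 224 CPM in the wild-type total and 593, 490 and 718 in its cytoplasm, and 161, 155 and 129 and then 135, 144 and 159 in the mutant (−1.48 ± 0.21, adjusted p = 0.00254). The polyamine exporters TPO1 and TPO2 changed by −1.36 ± 0.21 (adjusted p = 0.00271) and −1.39 ± 0.32 (adjusted p = 0.0164), and 41.3% of the 50-base windows of TPO2 occur elsewhere. TPO1 read from the feature with coverage as the only condition gave −0.29 (adjusted p = 0.591). The list had 6 to 14 losses when 1 library was left out, with 14 without wild-type cytoplasm 2.

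Hexose transporters and sensors held both directions, with 2 losses and 1 gain of 14 (median −0.33). Besides HXT1, the glucose sensor RGT2 changed by −1.04 ± 0.16 (adjusted p = 0.00271, and −0.44, adjusted p = 0.128, with coverage as the only condition on its feature), while HXT2, a high-affinity transporter, changed by 1.24 ± 0.34 (adjusted p = 0.0349). HXT2 had 340, 182 and 275 CPM in the wild-type total and 110, 85.5 and 64.6 in its cytoplasm, and the mutant had 64.7, 55.1 and 78.3 and then 60.0, 41.8 and 50.1, so the wild-type total was the high group. It did not pass without wild-type total 1 or 3, wild-type cytoplasm 3, mutant total 1 or 2, or mutant cytoplasm 1 (adjusted p 0.0733 to 0.0897).

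Cell wall proteins and wall synthesis were split as well, with 8 losses and 6 gains of 45 (median −0.27). FKS1, the catalytic subunit of glucan synthase with 11 hydrophobic segments, had 852, 691 and 816 CPM in the wild-type total, 2016, 1073 and 1686 in the wild-type cytoplasm, 473, 531 and 507 in the mutant total and 419, 424 and 429 in the mutant cytoplasm (−1.27 ± 0.27, adjusted p = 0.0118), opposite to CTS1, DSE2 and SCW11. The losses in this list ranged from 1, without wild-type cytoplasm 3 or mutant cytoplasm 1, to 14, without wild-type cytoplasm 2, and were 3 to 5 without any wild-type total, any mutant total or mutant cytoplasm 2. The gains ranged from 5 to 7. The balance turned with the scaling, to 3 losses and 8 gains with library totals, 4 and 8 with TMM factors from mRNAs and 0 and 2 when scaled to mitochondrial transcripts. COPI and COPII vesicle transport had 3 losses of 19 (median −0.33), among them ERV14, a COPII cargo receptor (−0.79 ± 0.17, adjusted p = 0.0107), ERP2, a cargo protein of the p24 family (−0.84 ± 0.21, adjusted p = 0.0228), and SEC12, which starts the COPII coat (−0.61 ± 0.16, adjusted p = 0.0259). None of the 3 passed in edgeR with library totals (adjusted p = 0.105, 0.0754 and 0.204), where the list had no call, 2 members lower and 1 higher at an unadjusted p under 0.05 and a median of −0.02. Vacuolar ATPase and hydrolases had 2 of 15 (median −0.37), the carboxypeptidase ATG42 (−1.27 ± 0.26, adjusted p = 0.00921) and the ATPase subunit STV1 (−0.80 ± 0.20, adjusted p = 0.0249, and 0.124 with library totals, where the list had 1 loss and 1 gain).

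Peroxisome genes went both ways, with 3 losses and 2 gains of 20 (median 0.06). The losses were PEX32 (−0.91 ± 0.16, adjusted p = 0.00477), PEX29 (−0.80 ± 0.21, adjusted p = 0.0287) and PEX30 (−0.77 ± 0.22, adjusted p = 0.0392), membrane proteins of the ER and peroxisome that control peroxisome number. The gains included PEX19, the soluble receptor of peroxisomal membrane proteins (0.66 ± 0.14, adjusted p = 0.0119). PEX32, PEX30 and PEX19 had more counts on their own feature than on the opposite strand (means of 1486 against 432, 7501 against 1428 and 1688 against 601). Iron reductases and uptake had 1 loss, FRE8 (−0.65 ± 0.16, adjusted p = 0.0200), and 2 gains, FRE4 (0.63 ± 0.18, adjusted p = 0.0451) and FRE5 (1.2 ± 0.35, adjusted p = 0.0418), of 16 (median −0.11). FRE4 did not pass with the replicate block (adjusted p = 0.0579). With library totals the peroxisome list had 1 loss and 3 gains, without PEX29 (adjusted p = 0.156) and PEX30 (0.159), and the iron list had 4 gains and no loss, without FRE8 (0.200).

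The mRNAs of ribosomal proteins shifted together by a small amount without a call. None of 73 cytosolic ribosomal protein mRNAs was called, although 72 had a value below 0 and their median was −0.39 against −0.20 for all mRNAs. In the highest of 5 bins of mean level the median over mRNAs of all kinds was −0.37. Whether the ribosomal protein mRNAs differ from others of their level was not tested. RPL39 (−0.67 ± 0.26, adjusted p = 0.112) and RPS26B (−0.60 ± 0.25, adjusted p = 0.143) had the smallest p in the list. By edgeR 8 of the 73 were lower at an unadjusted p under 0.05 and none higher, and DESeq2 called none. The sign depends on the scaling: 55 lay below 0 with library totals, 68 with TMM factors from mRNAs and 11 when scaled to mitochondrial transcripts (median 0.14). Ribosome assembly factors had 3 losses and 2 gains of 66 (median −0.42), with RRP5, a scaffold of early pre-rRNA processing, at −1.09 ± 0.29 (adjusted p = 0.0313) and the helicase DBP6 at −0.79 ± 0.24 (adjusted p = 0.0493) on the one side, and FAF1, a small-subunit assembly factor, at 1.06 ± 0.24 (adjusted p = 0.0140) and TSR3, an rRNA-modifying enzyme, at 0.77 ± 0.15 (adjusted p = 0.00819) on the other. With library totals the list had 2 gains and no loss (RRP5, adjusted p = 0.0838, and DBP6, 0.185), with 4 members lower at an unadjusted p under 0.05 by edgeR. The call of DBP6 was kept only without wild-type cytoplasm 2 when 1 library was left out.

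Genes of soluble metabolism and protein turnover had few calls under the main scaling and more gains with library totals. Glycolysis, gluconeogenesis and ethanol had no call among 21 (median 0.09; by edgeR 2 higher at an unadjusted p under 0.05, and no call in DESeq2), with ALD2 at 0.52 ± 0.20 (adjusted p = 0.111) and ACS1 at 0.36 ± 0.16 (adjusted p = 0.161). With library totals the list had 3 gains (median 0.40), ALD2 (adjusted p = 0.0258) and ACS1 (0.0445) among them, and ALD2 also passed with the replicate block (0.0423). The proteasome list had 1 gain of 16 (median 0.11), the core subunit PRE6 at 0.70 ± 0.16 (adjusted p = 0.0170), and 5 gains with library totals (median 0.42). Amino acid biosynthesis had 2 gains of 34 (median −0.19), HOM3, the aspartate kinase, at 1.01 ± 0.21 (adjusted p = 0.0104) and ARG4, the argininosuccinate lyase, at 0.69 ± 0.17 (adjusted p = 0.0225). Heat shock chaperones had 1 loss, HSP30, and 1 gain, AHA1, an activator of Hsp90 (0.62 ± 0.17, adjusted p = 0.0323), of 23 (median −0.01), and 3 gains and no loss with library totals. Mating genes had 1 loss, PRM5 (−0.96 ± 0.23, adjusted p = 0.0213), and the gain PRM1, of 14 (median −0.20), and PRM5 did not pass with library totals (adjusted p = 0.0816).

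Among genes of the export machinery itself, the karyopherins, Ran cycle genes and export adaptors showed no common change. Neither the 8 karyopherins and Ran cycle genes (median 0.04) nor the 7 export adaptors (median 0.14) had a call by edgeR. At an unadjusted p under 0.05, 2 of the karyopherin genes were lower and none of the adaptors differed, and DESeq2 called 1 karyopherin gene lower, CSE1, and no adaptor. With library totals or TMM factors from mRNAs 1 karyopherin gene was higher. CSE1, the exportin of importin alpha, stood at −0.57 ± 0.18 (adjusted p = 0.0640), MTR10, an import receptor, at −0.41 ± 0.16 (adjusted p = 0.115), HRB1, an mRNA-binding adaptor, at −0.36 ± 0.17 (adjusted p = 0.195) and CBC2, a cap-binding subunit, at −0.30 ± 0.16 (adjusted p = 0.246). Nuclear pore genes had 1 loss of 11 (median −0.34), NUP157 (−0.76 ± 0.20, adjusted p = 0.0276, and 0.137 with library totals). All 11 had a value below 0, 4 of them at an unadjusted p under 0.05 by edgeR. With library totals 8 lay below 0 (median −0.03), and 5 did when scaled to mitochondrial transcripts (median 0.10). Of the 6 mRNAs that the study followed after release of an export block, the 3 it named double-stranded were PRY3 (0.34 ± 0.34, adjusted p = 0.559), HPF1 (0.85 ± 0.28, adjusted p = 0.0692) and FRE5, and the 3 named single-stranded were RPS17A (−0.46 ± 0.25, adjusted p = 0.258), RPS6A (−0.06 ± 0.24, adjusted p = 0.899) and TDH1 (0.77 ± 0.41, adjusted p = 0.252). FRE5 is the weakest of these readings, with a mean of 319 counts on the opposite strand against 1982 on its own feature. It ends 195 bases before YOR385W on the same strand of chromosome XV, and its call was kept only without wild-type total 2, wild-type cytoplasm 3 or mutant cytoplasm 3 when 1 library was left out. HPF1 passed with library totals (adjusted p = 0.0128), with TMM factors from mRNAs (0.0193), with the replicate block (0.0173) and in DESeq2 (0.0311). The other 21 lists examined had at most 2 losses and 1 gain each under the main scaling, with medians from −0.41 to 0.10.

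**Figure D4:**
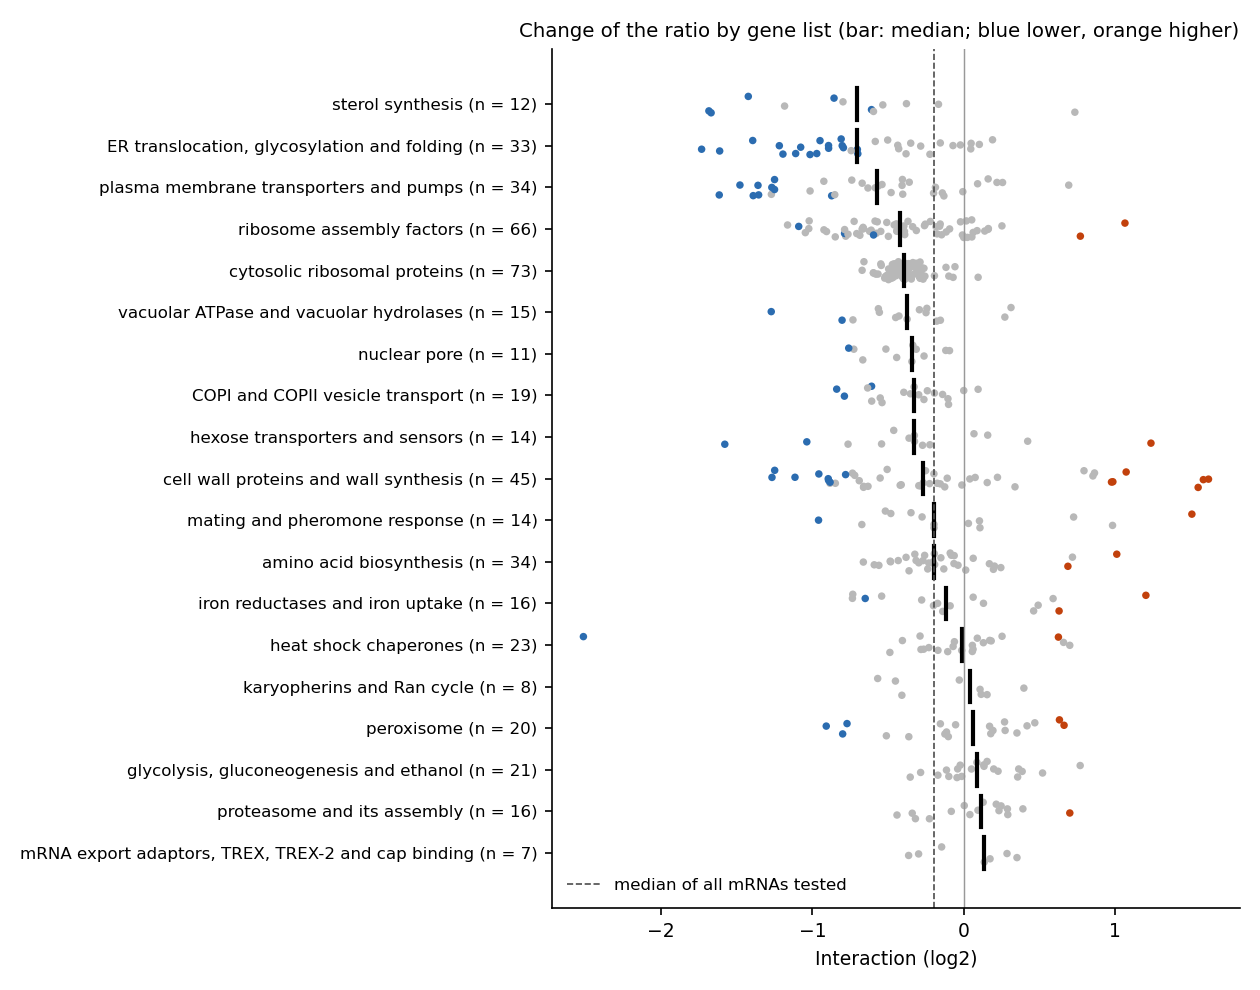
For each gene list described, every tested member's change of ratio on the log2 scale as a point, with the median as a bar and called members in colour; the dashed line is the median of all 2442 mRNAs at −0.20. The ER list has the most losses (17 of 33) and ribosomal proteins lie close together, nearly all below 0, with none called.

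The share of losses rose with the number of hydrophobic segments in the protein. The share was 3.54% of 1666 mRNAs with no segment, 14.3% of 406 with 1, 26.2% of 187 with 2 to 4 and 35.8% of 162 with 5 or more, while the share of gains was 3.60%, 4.19%, 4.81% and 2.47%. The median change of ratio went from −0.15 to −0.26, −0.39 and −0.58 over the same bins. The difference of medians between the last and the first bin was −0.43, and −0.43 to −0.41 under the other scalings. A scaling adds nearly the same amount to every gene, so this difference could hardly change and its steadiness is no test. The median of the bin with 5 or more segments was below 0 under all 4 scalings, and that of the bin with none was above 0 under the 3 other than the main one (0.16, 0.04 and 0.28). In DESeq2 the medians were −0.55 and −0.12. In wild type the median log2 ratio was −0.20 with no segment and 0.56 with 5 or more, and in the mutant it was −0.33 and −0.03, so these mRNAs were the more cytoplasmic ones in both strains and by less in the mutant. Across the 2421 mRNAs with a coding sequence, the Spearman correlation of segments with the change of ratio was −0.22, given as a description since genes are not independent and share their libraries.

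**Figure D5:**
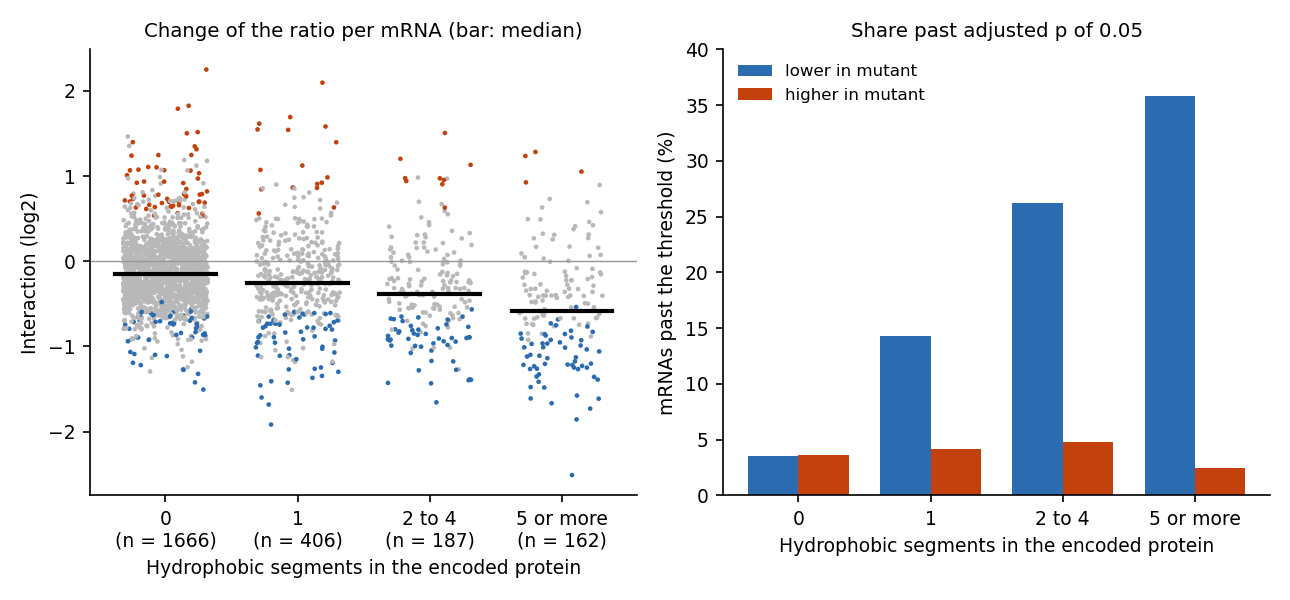
The change of ratio (log2) of the mRNAs in bins of the number of hydrophobic segments, with a point for each mRNA (blue losses, orange gains) and a bar at the median, and beside it the percentage of each bin that lost or gained. The median goes from −0.15 with no segment to −0.58 with 5 or more and the percentage that lost from 3.54 to 35.8.

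The share of losses was higher with 2 or more segments than with none within each of 5 equal bins of level and of length. In the lowest bin of mean level the difference was small: 3 of 66 mRNAs with 2 or more segments lost (4.55%) against 6 of 354 with none (1.69%). Their medians there were −0.04 and −0.01. In the highest bin 48.8% lost against 5.19%. In the bin of the shortest mRNAs the shares were 15.2% against 0.781%, and in the longest 32.3% against 5.00%. The higher share was also present outside the membrane and secretory lists, where 77 of 242 mRNAs with 2 or more segments lost (31.8%) against 54 of 1615 with none (3.34%). Of the 12 largest losses 11 had a segment, IRC13 among them, whose value cannot be assigned to its mRNA, and 7 had 5 or more. Of the 12 largest gains 7 had a segment and none had 5 or more. Of the 8 mRNAs with the least change 2 had a segment and 1, YCT1, had 5 or more (8). Of all 2421 mRNAs with a coding sequence, 1666 had no segment and 162 had 5 or more. The number of losses with 5 or more segments was 35 to 79 when 1 library was left out (35 without mutant cytoplasm 1), 41 with library totals and 1 when scaled to mitochondrial transcripts. That with no segment was 10, without mutant cytoplasm 2, to 138, without wild-type cytoplasm 2, and 8 and 0 under those scalings.

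Some other properties of the mRNAs varied with the losses as well. The share of losses rose from 2.86% in the shortest of 5 bins to 12.3% in the longest, and from 2.04% in the lowest bin of level to 15.1% in the highest. Each of these bins held 488 or 489 mRNAs, against 162 in the bin with 5 or more segments. The median change of ratio went from −0.01 in the lowest bin of level to −0.37 in the highest. Among mRNAs with no segment it went from −0.01 to −0.30 over the same bins. Of 118 mRNAs with an intron in the coding region 2 lost (1.69%) and 1 gained, with a median of −0.29, against 222 of 2303 (9.64%) without one and a median of −0.19. Of 85 mRNAs within 20000 bases of a chromosome end, 7 lost (8.24%) and 6 gained (7.06%). T at the second codon position, the letter marked in the sequences, gave 3.92% losses in its lowest bin and 21.5% in its highest. Hydropathy of the first 40 residues, where a signal sequence would lie, gave 19.4% losses in its highest bin and 5.17% to 8.04% in the others.

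Antisense signal at the same genes was read from the own feature of 564 mRNAs that had no mRNA on the other strand. Its median change of ratio was 0.13, where the mRNAs of the same genes had −0.12. Losses numbered 11 (1.95%) and gains 16 (2.84%), against 38 and 30 for the mRNAs. Of all 13145 features tested, 746 lost and 601 gained. At the median the own feature held 9.87% of the counts of the opposite one. Of the 27 antisense calls, 4 went the same way as a called mRNA, 1 went the other way and 22 lay at genes whose mRNA was not called. Leaving out 1 library gave 2 to 10 antisense losses and 8 to 27 gains, and library totals gave 3 and 35.

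The largest antisense gains were at SEN34, a tRNA splicing endonuclease subunit, MAP2, a methionine aminopeptidase, NUP1, a nuclear pore protein, INP2, a peroxisome inheritance protein, and AGP3, an amino acid permease. At SEN34 the antisense signal had 1.55, 1.11 and 1.22 CPM in the wild-type total, 0.78, 1.97 and 1.17 in the wild-type cytoplasm, 5.44, 4.31 and 4.77 in the mutant total and 17.9, 24.2 and 15.2 in the mutant cytoplasm (1.93 ± 0.39, adjusted p = 0.00907), and its mRNA changed by 0.15. At NUP1 the values were 4.57, 6.06 and 5.23, then 3.64, 8.79 and 6.17, then 14.0, 14.8 and 18.0, and then 48.6, 65.4 and 46.7 CPM (1.53 ± 0.35, adjusted p = 0.0153). The signal at these 2 genes was higher in the mutant total and higher again in the mutant cytoplasm, without overlap. AGP3 (1.44 ± 0.25, adjusted p = 0.00490) and MAP2 (1.63 ± 0.31, adjusted p = 0.00727) followed the same order of groups, and the call of INP2 (1.53 ± 0.43, adjusted p = 0.0404) was kept only without wild-type cytoplasm 2 or mutant cytoplasm 3 when 1 library was left out.

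Among the antisense losses, the signal at POC4 changed by −2.03 ± 0.50 (adjusted p = 0.0225) and held a mean of 50236 counts against 284 on the mRNA side. The POC4 feature overlaps SNR17B, the other gene of the U3 small nucleolar RNA, on the opposite strand, so as at IRC13 the counts cannot be assigned to an antisense RNA of the gene. The values were 1903, 819 and 1098 CPM in the wild-type total, 1845, 777 and 1338 in the wild-type cytoplasm, 3036, 3275 and 2815 in the mutant total and 473, 787 and 1056 in the mutant cytoplasm. The wild-type fractions overlapped and the mutant fractions were apart, as at IRC13. The call at POC4 was lost without wild-type total 2 or 3, wild-type cytoplasm 3, or mutant cytoplasm 1 or 2 (adjusted p 0.0522 to 0.0620). The losses at YNL190W (−2.53 ± 0.61, adjusted p = 0.0198) and FKS1 (−1.31 ± 0.38, adjusted p = 0.0426) rested on signal of 0.00211 and 0.00302 times the counts of mRNAs that lost as well, and whether it came from antisense RNA was not tested. The call at FKS1 was kept only without wild-type cytoplasm 2, mutant total 2 or mutant cytoplasm 3 when 1 library was left out, and that at YNL190W was lost without mutant total 1 (adjusted p = 0.0576). STT4, a lipid kinase, stood at −1.80 ± 0.54 (adjusted p = 0.0493), a call kept only without wild-type cytoplasm 1 or mutant total 2. GIP2, a phosphatase regulator, lost on its antisense side (−1.33 ± 0.30, adjusted p = 0.0156) while its mRNA stood at 0.12.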

How the data were processed

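RNA-seq of 12 libraries (total lysate and cytoplasmic fraction of wild type and mex67-5 xpo1-1, 3 each) was analysed from the deposited files of raw counts, 1 per library over 20619 features. Per the labels and the study's methods, the authors sequenced 50-base single reads, mapped them with STAR (2.5.2a) to sacCer3 and counted reads per feature with featureCounts (1.5.0-p1). Counts were not normalised by the authors before deposit, and library totals were 24532091 to 37361004. The median standard error of a single mRNA, 0.21, comes from the fit and its spread among replicates.

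From these counts, edgeR (4.0.16) with TMM factors and a quasi-likelihood fit tested the strain by fraction interaction over 13145 features with a mean count above 40, two-sided, with Benjamini-Hochberg adjustment over all of them and a threshold of 0.05. The ratios within each strain came from the same fit, and normalised read counts are counts per 1000000 of TMM-scaled libraries. The script was tested on simulated data. DESeq2 (1.42.0), other scalings, filters, counterpart rules, a replicate block and leaving out each library were alternatives. The study's strain by fraction design carries no batch label. Named genes are the 12 largest losses and gains past the threshold, the 8 mRNAs whose 95% interval lies closest around 0, and up to 4 called members of each gene list described, or up to 2 with the smallest p where none was called. Mutated and marker genes were left out. Coding sequences were taken from RefSeq R64, whose ends matched the counted features for 5979 of 5986 coding genes. Hydrophobic segments use the Kyte-Doolittle scale, and 50-base windows were counted over the whole genome. The members, gene lists and the measure of hydrophobic segments were chosen with earlier results of these data known. Replicates are the study's separate samples of a group.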

Additional observations from a re-analysis of the deposited data

Results flagged for a closer look

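The strains differed in the cytoplasm-to-total ratio of 226 mRNAs with a lower ratio in mex67-5 xpo1-1 and 90 with a higher one, by the edgeR test of the difference itself. The same test gave 11 lower and 16 higher for antisense signal. Among the 12 largest losses and gains, 7 mRNAs passed the test in each strain alone with opposite signs. These were PMT3 (change of ratio −1.73), ERG5 (−1.68), ERG4 (−1.67) and ALG7 (−1.61), higher in the cytoplasm of wild type and lower in that of the mutant, and YOR385W (1.83), DSE2 (1.58) and CTS1 (1.55), with the reverse order. Groups of 3 libraries are too small for a test of single outlying samples.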

How the results depend on the processing

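Against 226 losses, 90 gains and a median of −0.20, library totals gave 91, 222 and 0.11, TMM factors from mRNAs 137, 163 and −0.0074, and scaling to mitochondrial transcripts 1, 10 and 0.24. Antisense signal, with 11 losses, 16 gains and a median of 0.13, gave 3, 35 and 0.43, then 4, 26 and 0.31, then 1, 5 and 0.51, and 28 gains in DESeq2. DESeq2 gave 277 losses and 127 gains, and all 226 and 90 were among them. Gains fell to 54 with no filter on low counts. A counterpart with coverage of 0.5 alone gave 436 losses and 230 gains, and one with coverage of 0.8 gave 101 and 35 of 954 mRNAs. Leaving out each library gave 95 to 373 losses, 50 to 105 gains and a median of −0.23 to −0.088, and for antisense signal 2 to 10 losses, 8 to 27 gains and a median of 0.04 to 0.25. The cause of these movements was not tested.

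The replicate number as a block gave 283 losses and 108 gains, of which 212 and 79 were shared. The methods draw the total and the cytoplasm from the same culture, which would pair them, but no source says that equal numbers mark one culture, and the data do not settle it. Same-numbered libraries deviated together in wild type and not throughout in the mutant (r = 0.39, 0.52 and 0.18 in wild type, 0.40, −0.32 and −0.19 in the mutant). The main fit has no block because the study's methods name none, and the blocked values stand beside it. Among named genes the block ended the calls of ADH7, FRE4 (adjusted p = 0.0579) and the antisense signal of STT4 (adjusted p = 0.0588) and made calls of ALD2 (adjusted p = 0.0423) and HPF1 (adjusted p = 0.0173).

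Reading each mRNA from the feature of its own name gave 72 losses, 141 gains and a median of 0.055 over 2061 features, with 8 of the losses and 2 of the gains shared. Directions turned for INA1 (1.42), SEC63 (1.30), PMT3 (1.07), MEX67 (0.92), PMT4 (0.90), ALG7 (0.73), PEX29 (0.56), ERG4 (0.48), RGT2 (0.46), FRE8 (0.37), ERP2 (0.36), NUP157 (0.25), ERG5 (0.19), TPO2 (0.19), TVS1 (0.17) and DBP6 (0.10), and for TRP1 (−1.22), DAK2 (−0.75), ROF1 (−0.46), HOM3 (−0.28), HXT2 (−0.22), CTS1 (−0.21), SLZ1 (−0.14), FRE5 (−0.11), PRM1 (−0.095) and PEX19 (−0.084). By the reading rule this feature holds the antisense signal, and why the directions turned was not tested.

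Of the named genes whose lost calls the report does not give, leaving out 1 library ended the call for DBP6 in 11 cases of 12, PEX30, NUP157 and FRE4 in 9, ERG25 and SEC12 in 8, PEX29, HMG2, STV1 and RRP5 in 7, AHA1 and ERP2 in 6, PRM5 and FRE8 in 5, ARG4 in 4 and TPO2 in 2. No named gene with a call changed its direction under a scaling, a filter, DESeq2, the block or a left-out library, though 53 of the named values lost their call when scaled to mitochondrial transcripts, 15 with library totals (adjusted p 0.0512 to 0.204) and 8 with TMM factors from mRNAs. The 15 were HSP30, PEX29, PEX30, FRE8, SEC12, DBP6, ERP2, ERV14, NUP157, PRM5, HMG2, STV1, RRP5 and the antisense signal of STT4 (0.105) and FKS1 (0.103). The 8 were HSP30, PEX29 (0.0941), PEX30 (0.0937), FRE8 (0.0553), SEC12 (0.0541), DBP6 (0.0802) and the antisense signal of STT4 (0.0920) and FKS1 (0.0738).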
